A study of Mus musculus with 3 samples.

Results

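Of 9349 single cells kept from thymic reaggregates and cultured thymic lobes, 499 formed a set of lymphoid cells resembling group 3 innate lymphoid cells (ILC3-like cells). The cells were chosen by the gate below, selected on raw counts of unique molecular identifiers (UMIs, each standing for 1 captured transcript). Kept cells had at least 600 genes detected, 0.4 to 10% of UMIs from mitochondrial genes and at least 80% of 10 or more hashtag UMIs from 1 pool. ILC3-like cells held 3 or more UMIs summed over Chad, Il22, Il1r1 and Il17re. They held at most 1 UMI each of Klrd1, Epcam and Col1a1, at most 1 summed over the γδ T-cell segments Tcrg-V6 and Trdv4, and no assembled T-cell receptor (TCR) contig in the filtered list. Levels of those genes are therefore a description of the gate and support nothing below.

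The cells came from 2 pools of wild-type mouse cultures, labelled as without treatment and dissociated on day 13 and run together on 1 lane of 5′ droplet sequencing, with gene expression, TCR and hashtag libraries. The ORFTOC pool (organoid reaggregate fetal thymic organ culture) held thymic epithelial cells (TECs) that had grown as organoids and were then reaggregated with mouse embryonic fibroblasts and with embryonic thymus cells depleted of EpCAM-bearing cells. The FTOC pool (fetal thymic organ culture) held intact embryonic thymic lobes kept in the same medium. That medium held fetal bovine serum and the epithelial growth factor FGF7, and for ORFTOC the ROCK inhibitor thiazovivin is stated for the first days. In each pool 2 cultures were mixed before the hashtag antibody was added, so each pool was 1 sample. Differences between pools could not be tested, and no p-values were computed. The 95% intervals printed here reflect counting error alone, since variation from culture to culture was not measured.

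Innate lymphoid cells of group 3 are lymphocytes without a rearranged antigen receptor that depend on the transcriptional repressor Id2. They answer interleukin 23 and interleukin 1 with interleukin 22 and interleukin 17, and their fetal relatives, the lymphoid tissue inducer cells, carry lymphotoxin and the TNF-family ligand RANKL. In the embryonic thymus, RANKL from such cells (gene Tnfsf11) acts on its receptor RANK on medullary TECs, and interleukin 22 is known for its action on epithelium.

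The promoters of 3 genes that marked the set are shown because the motif AGGTCA, the core recognised by many nuclear receptors, was searched in them on both strands. Each sequence is the 250 bases before the RefSeq start on the gene's own strand (GRCm38.p6), with the motif or its reverse complement TGACCT in capitals. Il23r lies at chr6:67491856-67492105 on the minus strand, Tnfsf11 at chr14:78308044-78308293 on the minus strand and Chad at chr11:94564797-94565046 on the plus strand.
Il23r: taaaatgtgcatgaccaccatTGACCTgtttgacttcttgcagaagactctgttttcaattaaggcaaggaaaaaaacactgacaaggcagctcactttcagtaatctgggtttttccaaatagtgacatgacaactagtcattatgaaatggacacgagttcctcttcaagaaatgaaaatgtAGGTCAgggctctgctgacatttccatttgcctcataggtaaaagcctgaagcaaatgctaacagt
Tnfsf11: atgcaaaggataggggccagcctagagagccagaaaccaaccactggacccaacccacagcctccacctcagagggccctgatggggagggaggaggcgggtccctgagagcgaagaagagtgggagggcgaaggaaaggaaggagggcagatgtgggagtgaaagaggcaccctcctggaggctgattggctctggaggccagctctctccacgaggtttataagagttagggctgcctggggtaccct
Chad: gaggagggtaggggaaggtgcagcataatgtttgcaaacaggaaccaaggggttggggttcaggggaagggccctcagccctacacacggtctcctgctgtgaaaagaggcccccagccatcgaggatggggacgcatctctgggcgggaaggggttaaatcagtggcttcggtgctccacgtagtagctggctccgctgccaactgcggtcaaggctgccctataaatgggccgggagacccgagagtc
The Il23r window held 1 match in the sense direction, 66 bases before the start, and 1 in the antisense direction, 229 bases before it. The Tnfsf11 and Chad windows held none. A match stood in 14.02% of all 32851 promoter windows. Among genes 2-fold or more higher in ILC3-like cells (defined below), 48 of the 263 with a window held it (18.3%), against 388 of 2779 tested genes with a window (13.96%). The letters are a description of these windows and not of any bound factor.

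ILC3-like cells were more common in the reaggregates. They numbered 393 of 5237 kept ORFTOC cells (7.50%, Clopper-Pearson interval 6.81 to 8.25) and 106 of 4112 kept FTOC cells (2.58%, 2.12 to 3.11). ORFTOC cells made up 78.8% of the set (74.9 to 82.3), beside 56.0% of all kept cells and 54.1% of cells with a UMI of Ptprc, which encodes the pan-leukocyte protein CD45. A Ptprc UMI was found in 384 ILC3-like cells, which were 10.02% of Ptprc-positive ORFTOC cells (8.96 to 11.2) and 3.51% of Ptprc-positive FTOC cells (2.83 to 4.31). The gap between pools depended on the hashtag limit. With at least 95% of hashtag UMIs in 1 pool, 90.1% of ORFTOC cells but 31.3% of FTOC cells were kept, and the shares of Ptprc-positive cells became 10.9% and 8.79%. FTOC cells carried fewer hashtag UMIs (median 765.5 against 2912), and ILC3-like FTOC cells passed the stricter limit more often (77.4%) than other Ptprc-positive FTOC cells (29.2%). The part of hashtag labelling in the difference between pools was not tested.

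The gene expression library held 103984163 UMIs in 705161 barcodes, of which 10910 had 600 or more genes. ILC3-like cells had a median of 4841 UMIs in the ORFTOC pool and 5787 in the FTOC pool. The 2659 and 2416 other Ptprc-positive cells used for comparison had 7477 and 4256.5. They were all kept cells with a Ptprc UMI outside the set, with no limit on Epcam, Col1a1 or contigs. Of these 5075 cells, 3145 were TCR contig cells, with a filtered contig and at most 1 UMI each of Epcam and Col1a1. The comparison was thus largely with cells bearing a TCR contig. Summed over its cells, the ILC3-like set held 2085508 and 649880 UMIs. Levels are given as such sums per 1e+06 UMIs (counts per 1e+06, CPM), ORFTOC first and FTOC second, with exact Poisson or exact conditional intervals where a range is printed.

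Within the gate, Chad, which encodes the matrix protein chondroadherin, was the gene most cells entered by. A Chad UMI stood in 95.2% of ORFTOC and 89.6% of FTOC ILC3-like cells, at 830 and 728 CPM. Il22, the gene of interleukin 22, stood in fewer cells, 47.1% and 38.7%, at 624 and 512 CPM, and reached 124 UMIs in 1 ORFTOC cell and 26 in 1 FTOC cell. Il1r1, the interleukin 1 receptor, was detected in 52.4% and 47.2% of cells, and Il17re, a receptor subunit for interleukin 17C, in 54.7% and 52.8%. Il22 has a near-identical copy, Iltifb, to which only 2 and 1 UMIs were assigned in the set, so the split between the copies is uncertain.

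The summed count of the 4 genes had a median of 7 and a maximum of 133. The 58 cells just inside the limit, at 3 UMIs, had 91.5 CPM of Il23r and 143 CPM of Tnfsf11. The 75 cells just outside it, at 2 UMIs and otherwise alike, had 93.2 CPM of Il23r and 99.6 CPM of Tnfsf11. Cells with 2 or more UMIs summed over Cd3d, Cd3e and Cd3g were 46.7% just outside, 22.4% at 3 UMIs, 11.3% at 4 to 9 and 5.73% at 10 or more. The limit thus cut through a range rather than a gap. Of 880 kept cells with 3 or more summed UMIs, 381 were turned away, among them 189 with over 1 Col1a1 UMI, 153 with over 1 Epcam UMI and 42 with a filtered TCR contig.

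Il23r and Tnfsf11, neither of them in the gate, were higher in ILC3-like cells than in other Ptprc-positive cells of the same pool. Il23r, a subunit of the interleukin 23 receptor, stood at 142 and 115 against 3.98 and 4.06 CPM, a log2 ratio of 5.16 (4.83 to 5.49) and 4.83 (4.33 to 5.34). Tnfsf11 stood at 168 and 265 against 14.9 and 18.7 CPM, a log2 ratio of 3.49 (3.28 to 3.71) and 3.82 (3.54 to 4.10). Both genes were in the direction of the ILC3 label in both pools. Earlier results of these data were known when cells and lists were chosen. The direction therefore describes the set and is no independent check of the label.

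A Tnfsf11 UMI was detected in 43.8% and 60.4% of ILC3-like cells and an Il23r UMI in 47.1% and 47.2%. In epithelial cells (2 or more Epcam UMIs and no Ptprc UMI), read as background for free RNA, the Il23r share was 1.366% and 1.497% and the Tnfsf11 share 0.910% and 1.39%, at median depths of 13108.5 and 12140 UMIs. With each cell thinned to 1000 UMIs the ILC3-like shares were 13.7% and 9.43% for Il23r and 15.8% and 16.0% for Tnfsf11. The thinned shares of Tnfsf11 were thus nearly alike, where the unthinned ones differed by pool. Their intervals were wide, 12.3 to 19.8 and 9.63 to 24.4, and the levels in CPM given above differed between pools.

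**Figure D1:**
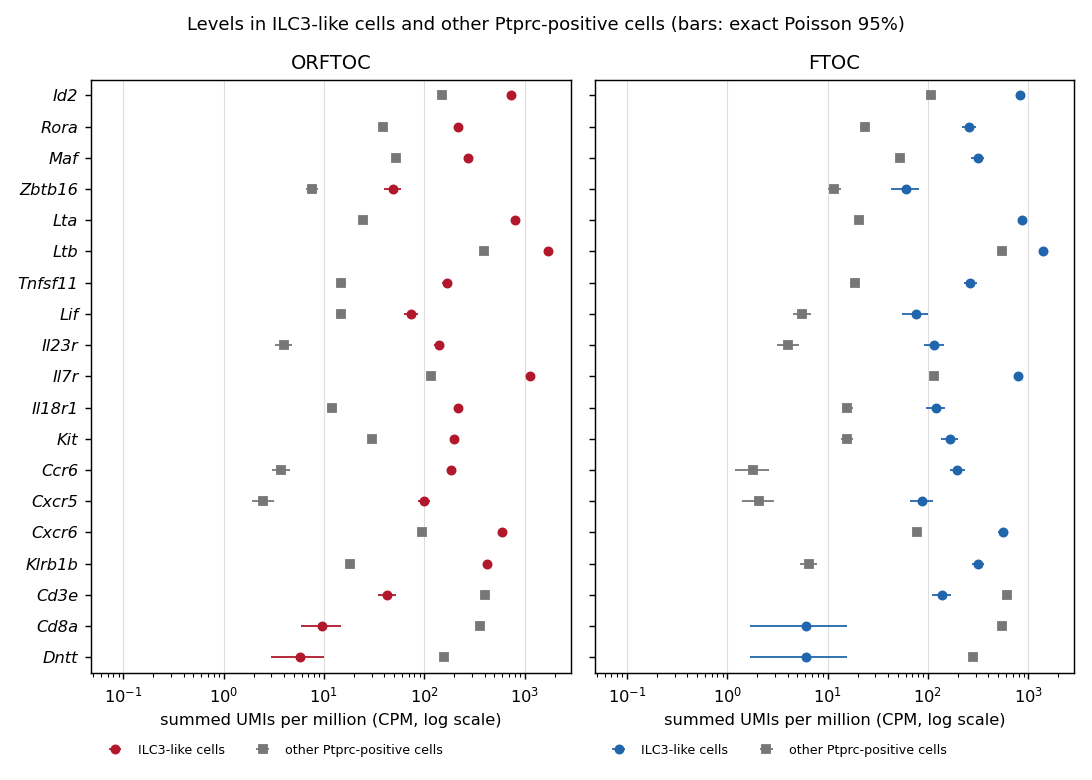
Level of 19 genes (vertical axis) in CPM on a log axis, in ILC3-like cells (circles) and other Ptprc-positive cells (squares) of the ORFTOC pool (left) and the FTOC pool (right), with exact Poisson 95% intervals. Circles lie to the right of squares for the first 16 genes in both pools, for example Lta at 795 and 859 against 24.5 and 20.4 CPM, and to the left for Cd3e, Cd8a and Dntt.

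Across all genes, 3488 had at least 50 CPM in the higher group of each pool and lay outside the gate. Of these, 337 (9.66%) were 2-fold or more higher in ILC3-like cells in both pools and 237 (6.79%) were 2-fold or more lower in both. The median log2 ratio over all 3488 was 0.09 in ORFTOC and 0.01 in FTOC. A gene is called higher or lower below only by this rule. A gene under 25 CPM in the lower group that reached 50 CPM in the higher one was 2-fold different by construction, and this held in at least 1 pool for 147 of the 337 higher and 142 of the 237 lower genes. The counts over the lists that follow therefore only describe which genes passed.

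Among 14 regulators of ILC3 and lymphoid tissue inducer cells, 11 reached 50 CPM. Of those, 7 were higher in both pools (among them Id2, Tox, Ahr, Runx3, Rora and Maf) and none was lower, and 1 of the 7 was under 25 CPM in other cells of at least 1 pool. Id2, the repressor needed by all innate lymphoid cells, stood at 737 and 822 against 150.5 and 108 CPM. Rora, encoding a nuclear receptor needed by group 2 innate lymphoid cells, stood at 218 and 257 against 38.9 and 23.5, and Maf, a transcription factor of interleukin 17 and 22 producers, at 271 and 312 against 52.1 and 52.4. The aryl hydrocarbon receptor gene Ahr had 151 and 122 CPM against 61.3 and 49.6. Gata3, Batf, Ikzf2 and Tcf7 did not pass in both pools. Tcf7, shared by early T cells and innate lymphoid cells, was at 746 and 575 against 387 and 588 CPM, so it lay above other cells in ORFTOC only. Zbtb16, encoding PLZF, a factor of innate lymphoid progenitors, was under the 50 CPM minimum in ORFTOC, at 48.4 and 60.01 against 7.69 and 11.7, and Nfil3 and Zbtb46 were under it in both.

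The ligand genes that passed were those of the TNF family and Lif. Of 20 cytokine and ligand genes, 5 outside the gate reached 50 CPM. Of the 4 that were higher in both pools, Lta, Lif and Tnfsf11 were under 25 CPM in other cells, so that the minimum fixed their call and only Ltb could have failed it. Lta, encoding lymphotoxin α, had 1657 and 558 UMIs in the set, which is 795 and 859 CPM, against 24.5 and 20.4 CPM in other cells. Its log2 ratio was 5.02 (4.89 to 5.15) and 5.40 (5.196 to 5.602). Ltb, its membrane-bound partner, was high in every lymphoid set and reached 1694 and 1388 CPM here, against 390 and 552. Lif, a cytokine of the interleukin 6 family, stood at 73.8 and 75.4 against 14.7 and 5.61. Tnf missed the 2-fold limit in ORFTOC, at 51.8 and 50.8 against 27.0 and 13.0 CPM. Tnfsf14, encoding LIGHT, was below the minimum, at 36.4 and 43.1 CPM, against 8.15 and 7.80. Cd40lg had no UMI in the 499 cells, and Il13 had 6 and 0 UMIs, Il4 5 and 0, Ifng 1 and 1, and Il5 and Il10 none. Other listed cytokines were low but present. Il2, a growth factor of lymphocytes, had 15 UMIs in 10 cells of each pool, at 7.19 and 23.1 against 7.05 and 1.48 CPM, so it lay above other cells in FTOC only. Areg had 21 and 5 UMIs, and Csf2, encoding GM-CSF, stood at 20.6 and 15.4 against 17.9 and 11.8 CPM.

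Receptors for interleukins 7, 18 and 23 and for stem cell factor were all higher in the set. Of 20 receptor genes, 10 outside the gate reached 50 CPM and 9 were higher in both pools, but 6 of the 9 were under 25 CPM in other cells of at least 1 pool. Il7r, the interleukin 7 receptor on which lymphoid cells depend, stood at 1123 and 785 against 116 and 116 CPM. Kit, the receptor for stem cell factor, stood at 199 and 166 against 30.5 and 15.7. Il18r1 had 216 and 120 CPM against 12.1 and 15.7, and its partner Il18rap 96.9 and 70.8 against 11.1 and 12.6. Il12rb1, the second chain of the interleukin 23 receptor, had 63.8 and 106 against 13.0 and 19.7, and Tnfrsf25, the receptor for TL1A, 171 and 171 against 18.1 and 21.1. The interleukin 2 receptor genes Il2ra and Il2rb were also higher, while the shared chain Il2rg missed the limit in FTOC (log2 1.00 and 0.84).

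The homing receptors divided by direction. Ccr6 and Cxcr5, chemokine receptors of lymphoid tissue inducer cells, were among the genes with the largest ratios. Ccr6 stood at 186 and 197 against 3.75 and 1.80 CPM, and Cxcr5 at 99.7 and 87.7 against 2.50 and 2.06. Cxcr6 was also higher (589 and 560 against 96.0 and 78.1 CPM), as were Itgb7, Nrp1 and Cd44, so that 6 of the 10 that reached the minimum, of 14 listed, were higher, 3 of them from under 25 CPM in other cells. The 2 that were lower were Ccr9, the receptor that guides T-cell progenitors to the thymus, at 30.2 and 40.0 against 145 and 280, and Itgae, encoding the integrin CD103, at 12.5 and 16.9 against 60.3 and 72.7. Ccr7 lay close to other cells, at 119 and 115 against 109 and 114 CPM.

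T-cell genes were low. Of 22 genes of the TCR complex and T-cell identity, 20 reached the minimum, 14 were lower in both pools, 9 of them at under 25 CPM in the set in at least 1 pool, and 1 was higher. Cells with a filtered TCR contig had been excluded from the set, so part of this follows from the gate. Cd3d, a subunit of the TCR complex, stood at 29.7 and 106 against 601 and 914 CPM, and Cd8a at 9.59 and 6.15 against 359 and 543. Bcl11b, which fixes T-cell commitment, had 15.8 and 27.7 against 116 and 182. The exception was Tcrg-C1, a γ-chain constant gene, at 243 and 280 against 90.4 and 71.8 CPM. Only 21.1% and 19.8% of its UMIs lay in ILC3-like cells with 2 or more Cd3 UMIs. Trbc2 did not pass, at 99.7 and 90.8 against 177 and 257, and Thy1, a surface protein of T cells and innate lymphoid cells alike, was at 890 and 762 against 578 and 786. Of 10 recombination and early T-cell genes, 3 reached the minimum and Rag1 and Dntt were lower, Rag1 at 17.26 and 20.004 against 113 and 270 CPM.

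Genes of neighbouring lineages differed by lineage, with those of natural killer cells mostly lower and several of γδ T cells present. Of 12 genes of natural killer cells and group 1 innate lymphoid cells, 6 reached the minimum and 5 were lower (Gzma, Gzmb, Xcl1, Ccl5 and Nkg7), with Gzma at 3 and 0 UMIs against 201 and 196 CPM in other cells. Xcl1 was still present, at 53.2 and 33.9 against 322 and 540 CPM. Eomes and Prf1 had no UMI in the set. Klrb1b, which encodes a C-type lectin receptor of the NKR-P1 family, went the other way, at 425 and 315 against 18.2 and 6.51 CPM. Of 12 genes read for group 2 innate lymphoid cells, 3 reached the minimum, and the 2 that were higher, Rora and the costimulatory gene Icos (190 and 157 against 54.4 and 42.2), are not particular to that group. Il1rl1 had 3 and 0 UMIs and Gata3 stood at 76.2 and 78.5 against 59.8 and 42.7 CPM. Of 10 γδ T-cell genes, 6 reached the minimum, Tcrg-C1 and Maf were higher and Trdc, the δ-chain constant gene, was lower (11.5 and 50.8 against 58.0 and 102 CPM). The other 3 passed in neither direction but lay above other cells. Cd163l1, a scavenger receptor gene used by γδ T cells, stood at 216 and 360 against 114 and 173 CPM, in 55 and 24 cells, and 22.6% and 56.0% of its UMIs lay in ILC3-like cells with 2 or more Cd3 UMIs. Tcrg-C4 stood at 58.0 and 75.4 against 39.2 and 42.8 CPM, and 5830411N06Rik at 62.3 and 76.9 against 19.2 and 42.4.

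Antigen presentation and cell division were low in the set, and some immediate-early genes were high. All 4 of 6 MHC class II genes that reached the minimum were lower, with H2-Aa at 69.0 and 23.1 against 594 and 436 CPM. That direction did not hold for H2-Aa and Cd74 once cells with 3 or more UMIs of epithelial, fibroblast or macrophage markers were left out of both groups. Of 8 cell cycle genes, 6 were lower, with Top2a at 63.8 and 146 against 337 and 359. Of 10 immediate-early and stress genes, 7 reached the minimum and Fos and Junb were higher. Fos stood at 1660 and 879 against 796 and 286, and Junb at 2862 and 2037 against 982 and 588. The heat shock genes Hspa1a and Hspa1b had 1 UMI in all.

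The 15 genes with the largest ratios outside the gate, ranked by the weaker pool, were Clec2l, Mapk10, Ccr6, Lingo4, Cxcr5, Cntn1, Lta, Pram1, Dkkl1, Il23r, Tox2, Dll1, Nrgn, Klrb1b and Hmgn3. Clec2l, a C-type lectin gene, stood at 57.1 and 55.4 against 0.985 and 0.322 CPM. Mapk10, encoding the kinase JNK3, stood at 81.5 and 66.2 against 1.44 and 0.515. Dll1, which encodes a Notch ligand, had 170 and 146 CPM against 6.25 and 3.99. Nrgn, best known as the neuronal protein neurogranin, had 1214 and 1123 against 47.8 and 40.1. Several of these genes are thus better known from other tissues, but each was found in both pools. The 10 genes with the smallest ratios were Ly6c2, Ly6d, Gzma, Cd8a, Trbv13-2, Cd2, Trbv1, Krt17, Dntt and Id3. The V genes Trbv13-2 and Trbv1 were low as the gate on contigs would make them. Krt17, a keratin, was no longer lower when cells with markers of other compartments were left out. Id3, an inhibitor of E proteins as Id2 is, stood at 7.19 and 6.15 against 193 and 239 CPM.

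The set was next read beside 3 sets of lymphoid cells without contigs. They were γδ cells (2 or more Tcrg-V6 and Trdv4 UMIs, 150 and 54 cells), Il13-type cells (3 or more UMIs of Il13, Il5, Il1rl1 and Il9r, 120 and 14 cells) and Klrd1 cells (2 or more Klrd1 UMIs, 124 and 217 cells). Genes 2-fold or more higher in ILC3-like cells in both pools were 272 of 3270 against the γδ set (8.32%), 205 of 3265 against the Il13-type set (6.28%) and 365 of 3315 against the Klrd1 set (11%). Lower genes were 110 (3.36%), 134 (4.1%) and 138 (4.16%). Ccr6 had 6 and 0 UMIs in γδ cells, 0 and 0 in Il13-type cells and 2 and 0 in Klrd1 cells.

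Against γδ cells, the leading gene was Igfbp7, a secreted protein that binds insulin-like growth factors, at 836 and 1679 against 14.1 and 1.89 CPM. Plac8, Nkg7 and Xcl1 were lower, Nkg7 at 11.0 and 38.5 against 821 and 772. Against Il13-type cells, Lta stood at 795 and 859 against 13.8 and 22.04 CPM, and Odc1, the first enzyme of polyamine synthesis, at 2035 and 1894 against 64.8 and 51.4. Areg, the epithelial growth factor amphiregulin, and Calca were lower, Areg at 10.1 and 7.69 against 400 and 654. Against Klrd1 cells, Il23r stood at 142 and 115 CPM with no UMI on the other side, and Kcnk1, a potassium channel gene, at 187 and 163 against 2.31 and 1.30. Xcl1, a chemokine of cytotoxic cells, stood at 53.2 and 33.9 against 1736 and 2131. Lta, Ccr6 and Il23r therefore set ILC3-like cells apart from these sets in level, while Cxcr6 and Ltb were high in all 4.

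**Figure D2:**
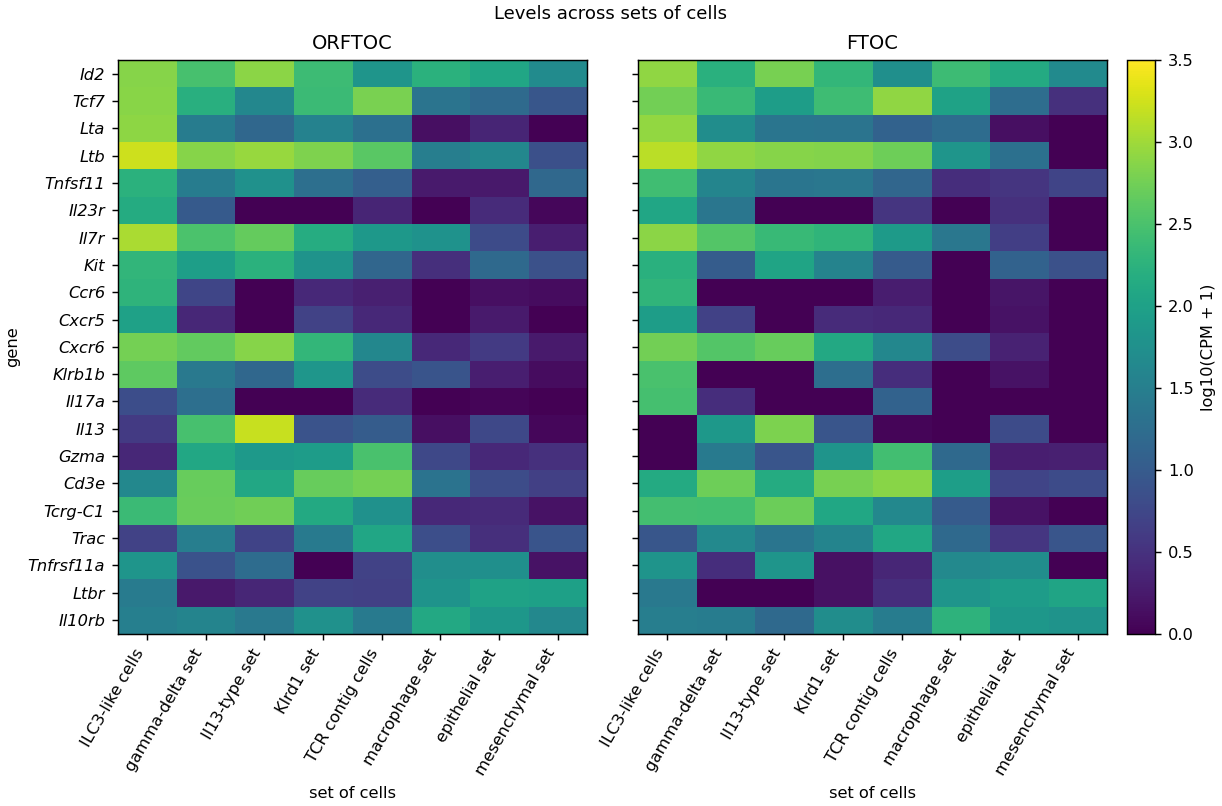
Level of 21 genes (rows) in 8 sets of cells (columns) of the ORFTOC pool (left) and the FTOC pool (right), coloured by log10(CPM + 1). The ILC3-like column is the brightest for Lta, Il23r, Ccr6, Cxcr5 and Klrb1b in both pools, Il13 is brightest in the Il13-type column and Cd3e in the TCR contig column.

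Because the set was small but rich in TNF-family ligands, the share of each pool's transcripts that it held was counted. ILC3-like cells were 7.50% of kept ORFTOC and 2.58% of kept FTOC cells. They held 1657 of 2437 Lta UMIs in ORFTOC (68.0%, 66.1 to 69.8) and 558 of 911 in FTOC (61.3%, 58.0 to 64.4). They held 351 of 876 Tnfsf11 UMIs (40.1%, 36.8 to 43.4) and 172 of 526 (32.7%, 28.7 to 36.9). Without ILC3-like cells with 2 or more Cd3 UMIs, the FTOC share of Tnfsf11 was 22.6%. For Ltb the share was 22.5% and 8.59%, with TCR contig cells holding 31.8% and 43.9%. The next largest named holder of Tnfsf11 was also the TCR contig set, at 14.95% and 21.9%, and mesenchymal cells held 9.93% and 0.76%. Cells in none of the sets held a further 21.6% and 24.0%. Among receptors, the set held 75.6% and 76.6% of Ccr6 UMIs, 65.5% and 40.1% of Il23r UMIs and 39.7% and 20.1% of Il7r UMIs.

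**Figure D3:**
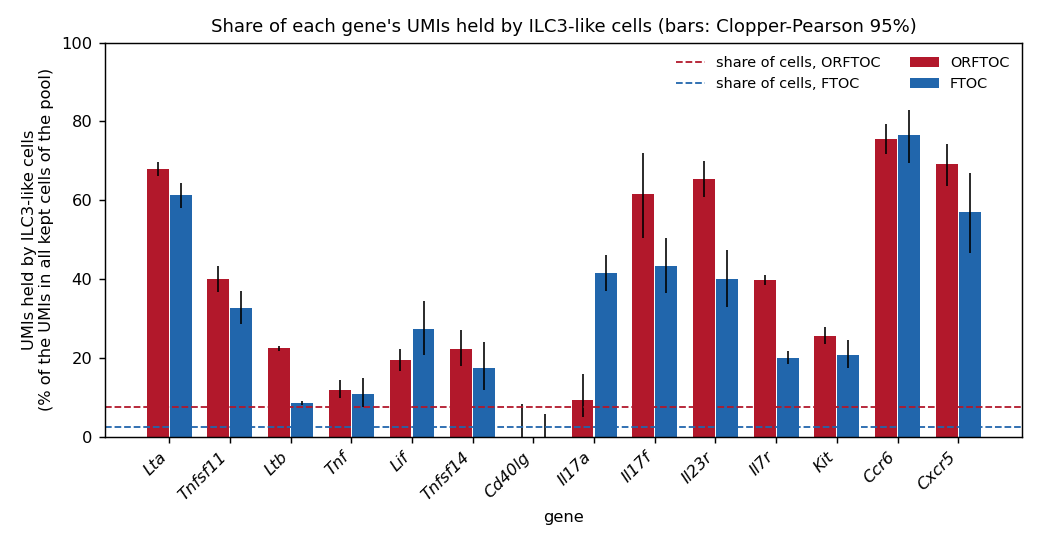
Percent of the UMIs of 14 genes in all kept cells of a pool that lay in ILC3-like cells, as bars from 0 with Clopper-Pearson 95% intervals, ORFTOC and FTOC side by side. Dashed lines mark the share of kept cells that were ILC3-like, 7.50% and 2.58%, and all bars lie above the line of their pool except Cd40lg, at 0 of 42 and 0 of 63 UMIs. Ccr6 stood at 75.6% and 76.6%, and the lowest bars above 0 were Il17a in ORFTOC at 9.45%, whose interval (4.98 to 15.9) spans the line, and Ltb in FTOC at 8.59%.

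The receptors for these ligands were read in the stromal sets. Tnfrsf11a, encoding RANK, stood at 54.5 and 51.4 CPM in epithelial cells, and at 66.2 and 63.1 in ILC3-like cells themselves, where it was higher than in other Ptprc-positive cells (16.1 and 11.3). Ltbr, the lymphotoxin β receptor, stood at 103 and 83.7 CPM in epithelial and 97.6 and 110 in mesenchymal cells. For interleukin 22 the receptor subunits differed. Il10rb had 69.7 and 69.7 CPM in epithelial cells, but Il22ra1, the specific chain, had only 3 and 1 UMIs there. Of 8 listed genes known as interleukin 22 targets elsewhere, only 2 are given here, as examples and without any link being tested. Reg3g stood at 565 and 715 and Lcn2 at 2595 and 549 CPM in epithelial cells, so they differed between pools in opposite directions. Ligands for the set's own receptors came from different sets, with Il7 at 200 and 143 and Kitl at 16.6 and 26.8 CPM in epithelial cells, and Il1b at 365 and 196 in macrophages. Il23a was at 10.6 and 10.7 in epithelial cells.

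ILC3-like cells varied in Il22. An Il22 UMI was found in 226 cells (45.3%), a Chad UMI without Il22 in 261 and neither in 12. These groups were made with genes of the gate and are described only. Lta was higher in cells with Il22, at 1070 and 1102 CPM, than in cells with Chad alone, at 542 and 807. Il23r was 140 and 138 against 145 and 126, and Tnfsf11 176 and 239 against 163 and 265. Il23r and Tnfsf11 thus lay close together in the cells with and without Il22. A Ccr6 UMI was found in 241 of the 499 cells, a Klrb1b UMI in 401, a Cd4 UMI in 22 and a UMI of Ncr1, the gene of the receptor NKp46, in 12.

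A smaller group carried T-cell transcripts. At least 2 UMIs of Cd3d, Cd3e and Cd3g were found in 32 ORFTOC cells (8.14%, 5.64 to 11.3) and 22 FTOC cells (20.8%, 13.5 to 29.7), and 10 and 8 of these also had a Trdc UMI. In these cells Lta was at 122 and 227 CPM, against 881 and 1127 in the rest of the set. Ccr6 was at 50.3 and 61.9 against 204 and 254. Trgv2, a γ-chain V segment that the gate did not use, had 34 and 51 UMIs in them and 1 and 0 in the rest. Tnfsf11 in FTOC did not follow this pattern, at 273 against 261 CPM.

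Within the FTOC part of the set, the cells with T-cell transcripts also held most of the interleukin 17 transcripts. Il17a had 12 UMIs in 5 ORFTOC cells and 190 UMIs in 9 FTOC cells, which is 5.75 and 292 CPM. Of the 190 UMIs, 173 (91.1%) lay in cells with 2 or more Cd3 UMIs, and 57.4% lay in 2 cells. Il17f had 53 UMIs in 25 ORFTOC cells and 89 UMIs in 18 FTOC cells, and 68.5% of the FTOC UMIs lay in cells with Cd3 against 9.43% in ORFTOC. Outside the set, Il17a stood at 11.7 CPM in FTOC and 1.68 in ORFTOC TCR contig cells, and at 17.8 CPM in ORFTOC γδ cells but 1.89 CPM, from 1 UMI, in FTOC γδ cells. Cells in none of the sets held 68 of the 127 Il17a UMIs of the ORFTOC pool (53.5%) and 166 of the 457 of the FTOC pool (36.3%).

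**Figure D4:**
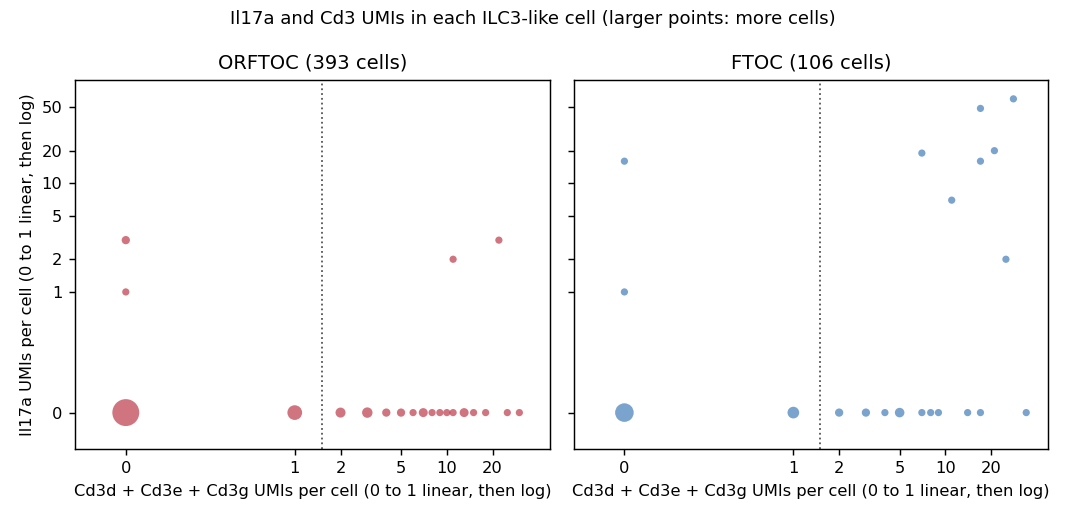
Il17a UMIs (vertical axis) against summed Cd3d, Cd3e and Cd3g UMIs (horizontal axis) in each ILC3-like cell, for 393 ORFTOC cells (left) and 106 FTOC cells (right), both axes linear from 0 to 1 and logarithmic beyond, with larger points for more cells. The dotted line marks 2 Cd3 UMIs, and 7 of the 9 FTOC cells with Il17a lie to its right, with 173 of the 190 UMIs.

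Between pools, ILC3-like cells were close in level for most genes. Of 3552 genes at 50 CPM or more in the higher pool, 36 (1.01%) were 2-fold or more higher in ORFTOC and 51 (1.44%) 2-fold or more lower. The median log2 ratio of ORFTOC over FTOC was 0.00. Ccr6 differed by -0.08 (-0.37 to 0.22), Lta by -0.11 (-0.25 to 0.03) and Il23r by 0.30 (-0.07 to 0.68). For these 3 genes the counting interval spanned 0. Tnfsf11 was lower in ORFTOC, by -0.65 (-0.92 to -0.38), and Il7r, Il18r1 and Ltb were higher, by 0.52, 0.85 and 0.29, all below the 2-fold limit.

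Among the 10 genes with the largest ratio of ORFTOC over FTOC, 9 came mainly from 1 or 2 cells. They were Mmp12, Lyz2, Gpnmb, Ccl6, C1qa, Lgals3, Hmox1, C1qb and Alas1, and Mmp12, a macrophage elastase, had 99.5% of its ORFTOC UMIs in 1 cell. Of the ORFTOC Lyz2 UMIs, 96.7% lay in ILC3-like cells with 5 or more UMIs of C1qa, C1qb and C1qc, of which there were 7 over both pools. Without those 7 cells the log2 ratios of Ccl6, C1qa, Lgals3, Hmox1 and Alas1 were below 0, with Ccl6 (-1.23) close to the floor. Mmp12 and Gpnmb both read -1.64, the value that the floor of 3 UMIs gives when neither pool exceeds it. Their direction was therefore not measured.

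The 10 genes with the smallest ratio were Il17a, Gm20628, Hist1h1a, Hist1h2ae, Rrm2, Hist1h1b, Hist1h2ap, Il17f, Ccl5 and Pclaf, of which 4 are histone genes. Some of these also rested on 1 FTOC cell, which held 92.2% of the Ccl5, 63.8% of the Gm20628 and 55.1% of the Il17f UMIs of FTOC. Of 8 cell cycle genes, 6 reached the minimum between pools and 5 were lower in ORFTOC, such as Birc5 at 33.6 against 100 CPM and Mki67 at 44.1 against 102. ILC3-like cells with 5 or more cell cycle UMIs were 10 in ORFTOC (2.54%) and 6 in FTOC (5.66%), so few cells carry these levels. Rrm2, the small subunit of ribonucleotide reductase, had 30 UMIs in 10 ORFTOC cells and 62 in 14 FTOC cells. In other Ptprc-positive cells its log2 ratio between pools was -0.05. Without the cells with 2 or more Cd3 UMIs, the count of genes higher in ORFTOC became 51 and of genes lower 34, Il17a stood at a log2 ratio of -3.30 and Il17f at -1.24. That Il17a value rested on 1 FTOC cell, which held 16 of the 17 UMIs left. At the stricter hashtag limit Il17f stood at -0.84.

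**Figure D5:**
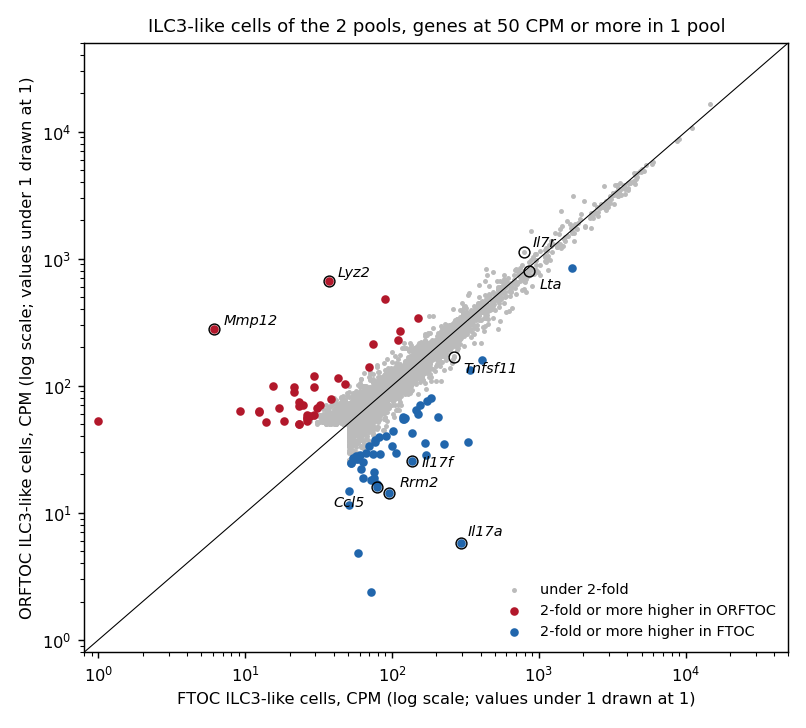
Level of each gene at 50 CPM or more in 1 pool in FTOC (horizontal axis) and ORFTOC (vertical axis) ILC3-like cells, in CPM on log axes with values under 1 drawn at 1 and a line of equal level. Most genes lie along the line, and coloured points mark the 36 genes 2-fold or more higher in ORFTOC, with Mmp12 and Lyz2 far above the line, and the 51 lower, with Il17a farthest below.

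Marker lists were summed in the set as a description. Among lists of other cell types, those of γδ T cells and, in ORFTOC, macrophages had the largest sums. The 10 ILC3 markers summed to 2854 and 2633 CPM, but they include the 4 genes that chose the cells. Of that sum, Chad made up 830 and 728 and Il22 624 and 512. Gate genes were left out of the other lists, so the ILC3 sum cannot be ranked against them. Of other lists, B cell and erythroid markers were at 0 throughout, mesenchymal markers summed to 7.67 and 3.08 CPM, epithelial markers to 68.1 and 49.2 and αβ thymocyte markers to 136 and 257. The cortical TEC gene Psmb11 had no UMI. The γδ list without its gate segments summed to 471 and 692 CPM, of which Tcrg-C1 made up 243 and 280 and Cd163l1 216 and 360, and macrophage markers summed to 953 and 98.5, of which Lyz2 made up 669 and 36.9. Mast cell markers summed to 200 and 168, nearly all of it Kit, with Mcpt4 and Fcer1a at 0, against 32.5 and 18.9 in other Ptprc-positive cells. Endothelial markers summed to 92.1 and 56.9, also above the 30.3 and 35.9 of those cells. Markers of group 2 innate lymphoid cells summed to 95.9 and 89.2 against 164 and 71.8, and dendritic markers to 35.0 and 13.8 against 41.9 and 8.51. The macrophage list lay below the 3512 and 1102 CPM of other Ptprc-positive cells. It moved with the difference between pools, as shown above for its leading genes.

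The pools also differed in the sex of their embryos as read from transcripts. Of ORFTOC ILC3-like cells, 93 had a Y-linked UMI and no Xist UMI, 188 had Xist and no Y-linked UMI, 10 had both and 102 neither. Of the 106 FTOC ILC3-like cells, 93 had Xist alone and none had a Y-linked UMI, for which the upper Clopper-Pearson bound was 3.42%. Other FTOC cells were alike, with 2 of 2416 Y-linked alone. Sex and culture type could therefore not be told apart in the FTOC pool. Within ORFTOC, cells with a Y-linked UMI and those with Xist had Tnfsf11 at 179 and 173 CPM, and Ltb at 1642 and 1694, while Lta stood at 559 and 806.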

How the data were processed

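The authors deposited unfiltered UMI counts per gene and barcode, and lists of TCR contigs with read and UMI counts. The submitters' processing notes name Cell Ranger 6.1.2, Seurat 4.2.0 and mm10, while the matrix header names another Cell Ranger version. Cells and sets were gated on raw counts as given in the report. Counts were summed per pool and set, scaled to CPM, and compared as ratios with each count under 3 raised to 3. Genes needed 50 CPM in the higher group, and calls needed a 2-fold ratio, in both pools where 2 were compared. Exact intervals came from scipy 1.17.1 with numpy 2.4.6 and pandas 2.3.3 in Python 3.11.15. Those of ratios were tested on simulated independent Poisson counts, the model they assume. That test could not show how they fare where the UMIs of a gene gather in few cells. Cells with 2 hashtags (896) were dropped. Within-pool doublets were kept, and removing 922 by neighbours of known doublets (scikit-learn 1.9.0) took out 0 ILC3-like cells. That screen cannot show the set to be free of doublets. It passed the 7 cells in the macrophage gate and ORFTOC cells of 38664 and 40359 UMIs, beside a median of 4841. In all, 18 alternatives were tried. Named genes were the listed genes, the 15 highest and 10 lowest against other Ptprc-positive cells, and the 10 highest and 10 lowest between pools. Cells and lists were chosen with earlier results of these data known. Values of some listed genes are not reported here. Receptor, ligand and target genes in stroma, and subsets of the set, are described only.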

Additional observations from a re-analysis of the deposited data

Results flagged for a closer look

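Most ILC3-like cells had assembled contigs in the longer, unfiltered contig list, which was used in no comparison of the report. A contig with a V gene was found in 5.41% of ILC3-like cells over both pools, and a productive one in 3.81%. The gate had already removed cells with a filtered contig, so low shares were in part fixed in advance. With that limit lifted, 19 of 412 ORFTOC and 9 of 115 FTOC cells would hold a filtered contig. Epithelial cells, chosen without a limit on contigs, had a V gene contig in 5.95% and a productive one in 4.26%, so the shares are not alike in kind. Contigs of the β-chain constant region with no V gene and no assigned chain were found in 87.3% of ORFTOC (343 of 393) and 82.1% of FTOC ILC3-like cells (87 of 106), above the 4.32% and 3.21% found in epithelial cells. The share was close in γδ cells, at 89.3% and 87.0%, in Il13-type cells, at 92.5% and 78.6%, and in Klrd1 cells, at 83.1% and 81.6%. Other Ptprc-positive cells had such contigs in 67.0% and 67.8%, so they were not particular to the set. These 664 contigs in ILC3-like cells were 609 of TRBC2 and 55 of TRBC1, with a median of 6 UMIs and 355 bases. In the expression library Trbc2 stood at 99.7 and 90.8 CPM in the set. With only cells without any contig in that list, 67 of the 499 cells remained.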

How the results depend on the processing

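Of 18 alternatives tried, 16 gave log2 ratios, and none of the 16 turned the direction of Il23r or Tnfsf11 against other Ptprc-positive cells in either pool. Over these 16, 100 to 121 of the named genes kept a 2-fold difference and 0 to 16 turned sign. Some of these turns were set by the floor of 3 UMIs. Where no other cause is given below, the cause was not tested. No paired analysis was possible because the labels give no replicate numbers and each pool is 1 sample. The planned subtraction of ambient RNA removed nothing, since Psmb11 had no UMI in the set, and gave no value. The alternatives that left out cells with Cd3 or macrophage transcripts, and a second ambient scaling, were chosen after seeing the data.

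With a summed gate of at least 2 UMIs the set held 72.8% and 66.8% of Lta and 25.4% and 10.7% of Ltb UMIs (ORFTOC and FTOC), and C1qb between pools turned to -0.11. With at least 5 UMIs, a smaller set by construction, it was 7.85% and 2.4% of Ptprc-positive cells and held 34.7% and 24.3% of Tnfsf11, 57.3% and 47.9% of Lta and 17.5% and 5.91% of Ltb UMIs. The ORFTOC log2 ratio of Il23r was then 4.81, and 65 genes were higher in ORFTOC than FTOC. With cells thinned to 2000 UMIs before gating at 1 UMI, the shares of Ptprc-positive cells were 12.8% and 5.5%, the Lta share in ORFTOC 71.6%, the Ltb shares 25.2% and 9.88%, and Tnfsf11 in FTOC 3.37 on the log2 scale, with 84 genes lower in ORFTOC. C1qa and C1qb between pools turned to -0.74 and -1.097, and Ccl6 against other cells to 0.0659.

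At the hashtag limit of 95% the FTOC share of Ptprc-positive cells was 8.79%, the FTOC Tnfsf11 share 38%, the Lta shares 71.5% and 65.3% and the Ltb shares 23.7% and 11.9%. Tnfsf11 in FTOC stood at 3.49 and C1qb between pools at -0.14. With the exclusion genes at 0, Lta in ORFTOC was 65.9%, Ltb 21.1% and 7.9% and Ccl5 between pools 1.17. Asking for no contig in the unfiltered list left 67 cells, 71.6% of them ORFTOC, or 1.29% and 0.639% of Ptprc-positive cells. They held 6.74% and 6.27% of Tnfsf11, 9.97% and 7.24% of Lta and 2.33% and 1.06% of Ltb UMIs. Between pools, 278 genes were higher and 798 lower in ORFTOC, and the part of the smaller cell number in this was not tested. On the log2 scale, Il23r in ORFTOC was 3.93 and Tnfsf11 in ORFTOC 3.23. Signs turned for C1qa, C1qb and Lyz2 against other cells (0.19, 0.062 and 1.43) and for Egr1 between pools (-0.45). Removing within-pool doublets moved the ORFTOC Ltb share to 23.7%.

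Leaving out cells with markers of another compartment gave 11.9% of Ptprc-positive ORFTOC cells, Lta 65.7% and 56.4%, Ltb in ORFTOC 21.3%, a Tnfsf11 log2 ratio of 3.23 in ORFTOC, and 22 genes higher in ORFTOC. Against other cells the sign turned for H2-Aa (0.23), Cd74 (0.085), C1qa (0.29), C1qb (0.63), Lyz2 (0.19), Krt17 (0.22) and Ccl6 (0.66). Between pools it turned for C1qa and Hmox1 (-0.61 each), C1qb (-0.23), Lyz2 (-0.021), Lgals3 (-0.86) and Alas1 (-0.16). Mmp12, Gpnmb and Ccl6 read -1.61 each, the value set by the floor of 3 UMIs in both pools. These 3 genes are counted as turned, but their direction was not measured. Without cells with 2 or more Cd3 UMIs, FTOC gave 2.7% of Ptprc-positive cells, Tnfsf11 22.6% and Lta 56.4%, Ltb stood at 20.9% and 6.3% and Ccl5 between pools at 0.44. Without cells in the macrophage gate, Lta in FTOC was 57.3%. Between pools C1qa stood at -0.26, Ccl6 at -1.23, Lgals3 at -0.89, Hmox1 at -0.64 and Alas1 at -0.32. Mmp12 and Gpnmb read -1.64, again the value set by that floor.

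Equal weight per cell gave log2 ratios for Il23r in ORFTOC of 4.32 and Tnfsf11 3.19 and 4.22. A minimum of 100 CPM, which tests fewer genes, gave 194 higher and 126 lower against other cells and 11 and 23 between pools, and scaling without mitochondrial and ribosomal genes gave 59 higher in ORFTOC. Thinning to 1000 UMIs gave detection shares of 13.7% and 9.43% for Il23r and 15.8% and 16.04% for Tnfsf11. The FTOC set held 649880 UMIs against 2085508, and genes below the floor of 3 UMIs could not be measured.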
